A study of Mus musculus with 9 samples.

Results

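The 14-3-3 proteins are a family of small adapter proteins encoded by 7 genes, Ywhab (beta), Ywhae (epsilon), Ywhag (gamma), Ywhah (eta), Ywhaq (theta), Ywhaz (zeta) and Sfn (sigma). Here their mRNAs were followed through an RNA immunoprecipitation of CELF2, an RNA-binding protein that shuttles between the nucleus and the cytoplasm and acts in splicing, mRNA stability and translation. All transcripts of the 7 genes in the deposited counts were taken by gene symbol, whatever their values, and these were 11 of 107384 transcripts in all. Summed per gene, all 7 members passed the filter on low counts, and 15267 protein-coding genes were tested.

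14-3-3 proteins work as dimers that bind short motifs in other proteins once a serine or threonine in the motif is phosphorylated. Binding can hold the partner in the cytoplasm, shield it from phosphatases, or change its activity, so the family sits downstream of many basophilic kinases. The proteins are abundant in the brain, where they bind ion channels, cytoskeletal regulators and transcription factors. Variants of human YWHAG are a known cause of developmental and epileptic encephalopathy, and YWHAE lies in the region deleted in Miller-Dieker syndrome, a disorder of neuronal migration.

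RNA came from cortices of newborn mice (postnatal day 0) that were heterozygous for a knockin (KI) allele of Celf2, made by CRISPR/Cas9, that codes for the change R493H. Every library was made from the cytoplasmic fraction of such cortices, so all groups carried the KI allele and no wild-type library was compared here. The fraction was kept untreated as input, or was incubated with 10 μg of rabbit antibody to CELF2 (CELF2-KI RIP) or of normal rabbit IgG (IgG RIP) for 3 hours. There were 3 biological replicates of each; how many cortices went into a library is not given in the sources used here, nor is the antibody described as specific to the KI protein. Input is the RNA present in the fraction, and IgG RIP measures RNA that beads and antibody carry without CELF2.

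The 3 inputs held 69125700 to 105116427 estimated counts, the IgG RIPs 17365561 to 28773130 and the CELF2-KI RIPs 15919600 to 20052716. Transcripts that matched no gene took 9.24% to 9.75% of counts in input, 11.6% to 12.6% in CELF2-KI RIP, and 43.5%, 41.5% and 21.1% in IgG RIP replicates 1, 2 and 3, so IgG RIP replicate 3 stood apart from the other IgG RIPs. Neuron markers (9 genes, Tubb3 and Bcl11b among them) were all measured, and their summed level was 3221 to 3726 counts scaled to library size (CPM) in CELF2-KI RIP, against 1681 to 2152 in IgG RIP, with input at 2853 to 3134. The summed level of 6 radial glia markers was 165 to 256 CPM in CELF2-KI RIP, against 454 to 498 in IgG RIP, with input at 572 to 615, and that of 3 erythroid genes was 59.0 to 67.5, 263 to 414 and 651 to 834 CPM. Over CELF2-KI RIP, IgG RIP and input in turn, the sums were 519 to 894, 434 to 483 and 724 to 935 CPM for 4 astrocyte markers, 414 to 478, 322 to 356 and 371 to 431 for 4 markers of oligodendrocyte precursors, and 143 to 208, 123 to 278 and 158 to 251 for 4 endothelial markers. The sum of 4 microglia markers was 89.3 to 122 CPM, 43.4 to 58.4 and 78.1 to 103, and of these P2ry12 was at 0 in both kinds of RIP and Csf1r at 0 in input. Single markers did not all follow these sums. Of the neuron markers, Stmn2 averaged 334 CPM in CELF2-KI RIP and 638 in input, Neurod6 60.5 and 94.0, and Dlx2 24.3 and 56.0. Tubb3 made up most of the neuron sum, at a mean of 1893 CPM in CELF2-KI RIP. Pdgfra (374 CPM in CELF2-KI RIP and 237 in input) made up most of the precursor sum, and Olig1 (36.2 and 104), Olig2 (20.7 and 36.5) and Sox10 (6.41 and 18.6) lay lower in CELF2-KI RIP. Per the paper, input was an aliquot set aside from the fraction that went into RIP. The marker sums therefore describe RNA recovered in each kind of library and are not counts of cells. The part of cell makeup in the results below was not tested. Celf2 mRNA itself was called higher with the CELF2 antibody than with IgG (log2 fold change 1.46 ± 0.18, SE, edgeR FDR 9.69e-05), with 638 ± 164 CPM against 233 ± 33.4 (SD, n = 3).

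Ywhag mRNA was the member most enriched with CELF2. Its level was 2512, 3628 and 3194 CPM in the 3 CELF2-KI RIPs, 856, 911 and 1208 CPM in the IgG RIPs, and 916, 914 and 984 CPM in the inputs. Every CELF2-KI RIP was above every control by a wide margin, and the IgG RIPs overlapped the inputs. Ywhag lies on chromosome 5 from 135908379 to 135934641 (GRCm38.p6, the mm10 assembly) and was measured by a single transcript, NM_018871.3. Against IgG RIP its log2 fold change was 1.65 ± 0.17 (SE, edgeR quasi-likelihood test, Benjamini-Hochberg FDR 2.68e-05, n = 3 per group), a 3.14-fold rise. Against input it was 1.73 ± 0.17 (edgeR FDR 1.85e-05), a 3.32-fold rise. IgG RIP against input gave 0.08 ± 0.16 (edgeR FDR 0.717). A call was set at an FDR under 0.01 together with an estimated change of at least 2-fold, and Ywhag met it against both controls, as did 7.58% of all genes tested. It was called higher in each of the 20 alternative analyses in both comparisons, with log2 fold changes of 1.27 to 1.82 against IgG RIP and 1.26 to 1.86 against input.

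**Figure D1:**
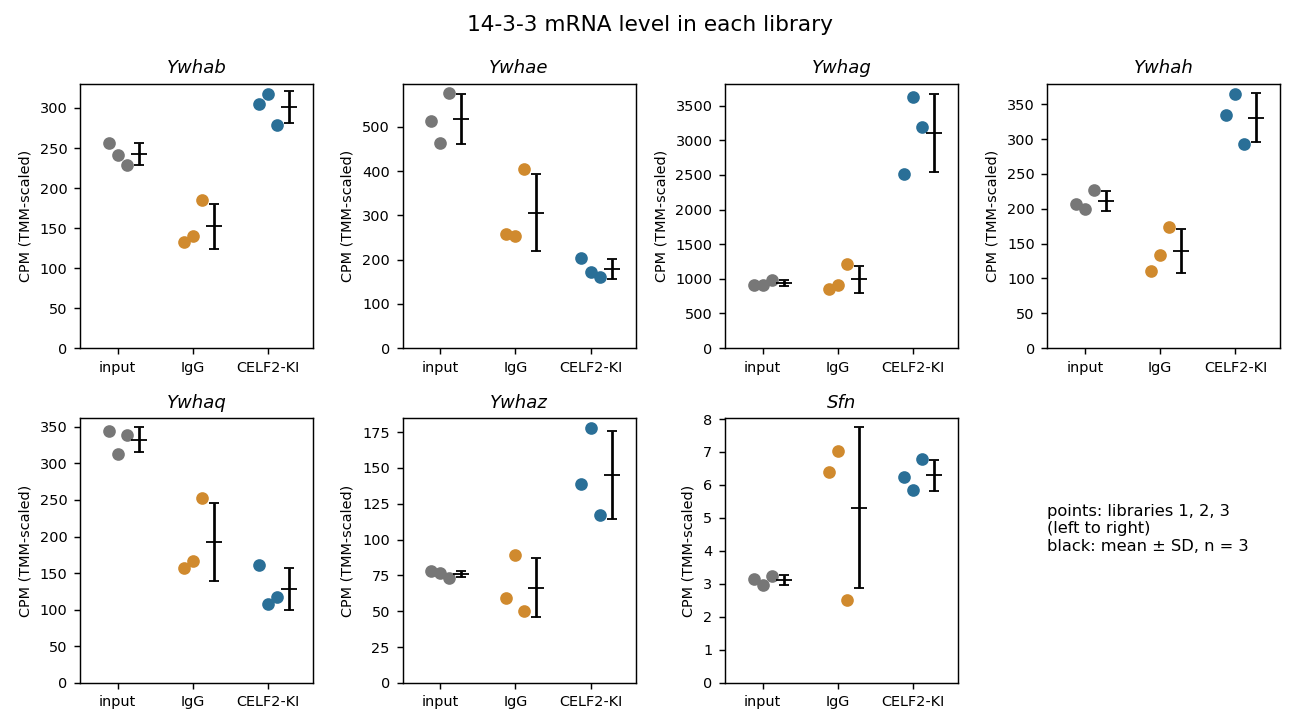
Level of each 14-3-3 mRNA in CPM on TMM-scaled libraries (y axis, from 0, a scale of its own in each panel) in 3 input, 3 IgG RIP and 3 CELF2-KI RIP libraries. Points are libraries 1 to 3 and black marks give the mean ± SD; Ywhag sits between 2512 and 3628 CPM in CELF2-KI RIP and at or below 1208 CPM in all 6 controls, while Ywhae is below all 6 controls in CELF2-KI RIP.

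Ywhah and Ywhaz also rose against IgG RIP, but neither was called against input. Ywhah (chromosome 5, 33018816 to 33027966) measured 335, 365 and 294 CPM in CELF2-KI RIP, against 111, 134 and 174 in IgG RIP, with the inputs at 207, 200 and 228. Its 3 groups did not overlap, with IgG RIP lowest and CELF2-KI RIP highest. The log2 fold change was 1.25 ± 0.16 against IgG RIP (edgeR FDR 0.000116) and 0.65 ± 0.16 against input (edgeR FDR 0.00534), where it stayed under 2-fold. IgG RIP against input was -0.60 ± 0.16 (edgeR FDR 0.0137).

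Ywhaz encodes the zeta protein, a binding partner of many signalling kinases, and lies on chromosome 15 from 36770261 to 36802984. It measured 139, 178 and 117 CPM in CELF2-KI RIP, against 59.4, 89.5 and 50.4 in IgG RIP, with the inputs at 77.9, 76.4 and 73.4. CELF2-KI RIP was above all 6 controls, and the IgG RIPs lay on both sides of the inputs. The log2 fold change was 1.13 ± 0.21 against IgG RIP (edgeR FDR 0.00128) and 0.93 ± 0.21 against input (edgeR FDR 0.0033), the second just under 2-fold. The call against IgG RIP held in 13 of 20 alternatives and was lost without IgG RIP replicate 3 (0.96) and without CELF2-KI RIP replicate 2 (0.95) and with curated transcripts alone (0.97), while without CELF2-KI RIP replicate 3 Ywhaz was also called against input (1.06). Only 4 of its 6 transcripts in the gene table were among the deposited counts, so its summed count may be short of reads.

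Ywhab, the beta member and a partner of RAF kinases, stood just short of the same call. It lies on chromosome 2 from 163995197 to 164018588 and measured 305, 318 and 279 CPM in CELF2-KI RIP, against 132, 141 and 185 in IgG RIP, with the inputs at 257, 242 and 229. The groups did not overlap. The log2 fold change against IgG RIP was 0.98 ± 0.13 (edgeR FDR 0.000167), a 1.97-fold difference, and against input it was 0.31 ± 0.13 (edgeR FDR 0.0652). IgG RIP against input was -0.67 ± 0.13 (edgeR FDR 0.00363). Ywhab was called against IgG RIP without IgG RIP replicate 3 (1.14) and without CELF2-KI RIP replicate 3 (1.03).

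Ywhae and Ywhaq went the other way. Ywhae (chromosome 11, 75732887 to 75765841), whose product binds the dynein regulator NDEL1 in migrating neurons, measured 205, 172 and 161 CPM in CELF2-KI RIP, against 258, 254 and 406 in IgG RIP, with the inputs at 513, 464 and 577. It was the only member that was lower in every CELF2-KI RIP than in all 6 controls. The log2 fold change was -1.53 ± 0.19 against input (edgeR FDR 7.77e-05), a call, and -0.77 ± 0.19 against IgG RIP (edgeR FDR 0.00554), under 2-fold and not called. IgG RIP was itself below input by a log2 fold change of -0.76 ± 0.19 (edgeR FDR 0.00968).

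Ywhaq (chromosome 12, 21390329 to 21417436), the theta member, measured 161, 108 and 117 CPM in CELF2-KI RIP, against 158, 167 and 253 in IgG RIP, with the inputs at 344, 313 and 339. Both kinds of RIP were below input in all libraries, and CELF2-KI RIP replicate 1 overlapped the IgG RIPs. The log2 fold change was -1.37 ± 0.20 against input (edgeR FDR 0.000229), a call, and -0.58 ± 0.20 against IgG RIP (edgeR FDR 0.0309). Without IgG RIP replicate 3, IgG RIP itself was called below input for Ywhae (-1.02) and Ywhaq (-1.03).

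Sfn, the epithelial member and a target of p53, was near the lower end of what these libraries measured. It lies on chromosome 4 from 133600556 to 133602168 and had 76 to 78 counts per CELF2-KI RIP, 35 to 102 per IgG RIP and 199 to 268 per input. In CPM that was 6.24, 5.85 and 6.78 in CELF2-KI RIP, against 6.38, 7.04 and 2.51 in IgG RIP, with the inputs at 3.16, 2.95 and 3.24. IgG RIP replicate 3 lay with the inputs, and the other IgG RIPs with CELF2-KI RIP. The log2 fold change was 0.25 ± 0.34 against IgG RIP (edgeR FDR 0.557) and 1.01 ± 0.33 against input (edgeR FDR 0.0224). Without IgG RIP replicate 3 the first was -0.09, and Sfn was called higher than input both in CELF2-KI RIP (1.01, edgeR FDR 0.000455) and in IgG RIP (1.10, edgeR FDR 0.00116). Of 6 markers of stratified epithelium, Krt5 and Krt14 were at 0 in IgG RIP and averaged 0.0541 CPM or less in each of the other groups, and the summed level of 17.0 to 46.6 CPM came mostly from Cdh1.

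**Figure D2:**
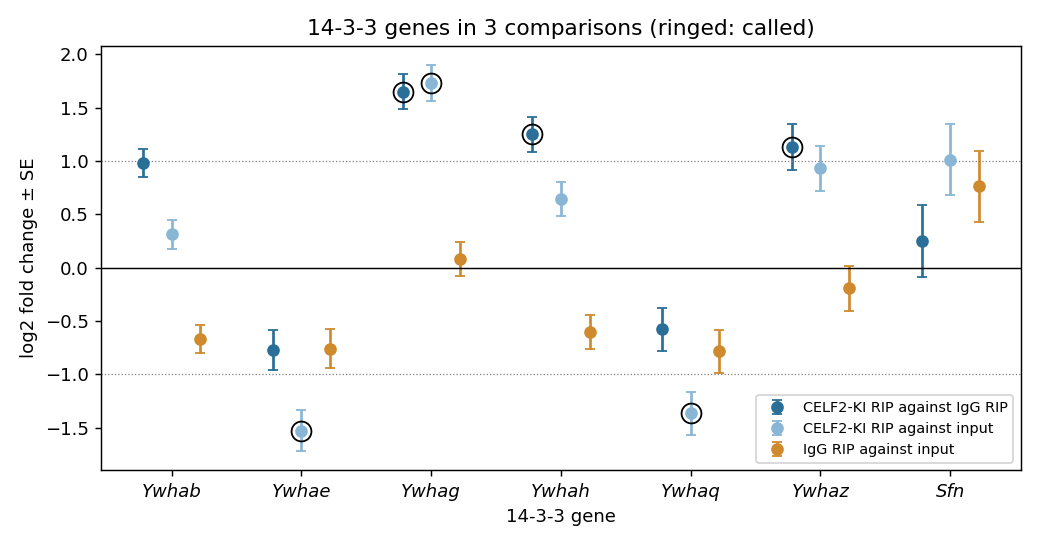
Log2 fold change ± SE (y axis) of the 7 14-3-3 genes (x axis) in CELF2-KI RIP against IgG RIP, CELF2-KI RIP against input and IgG RIP against input, from the edgeR model with 3 libraries per group. Rings mark calls and dotted lines 2-fold; Ywhag is ringed above 0 in both CELF2-KI RIP comparisons, and Ywhae and Ywhaq are ringed below 0 against input.

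Counted together, 3 of 7 members were called higher with the CELF2 antibody than with IgG, beside 13.4% of all genes tested, and 0 were called lower, beside 13.6%. At an unadjusted p under 0.05 in edgeR, 2 members were lower than in IgG RIP (Ywhae and Ywhaq), and DESeq2 also called 0 lower. The DESeq2 FDR (Wald test) was 0.000161 for Ywhae and 0.00753 for Ywhaq, so there only the 2-fold minimum was missed. Against input, 1 member was called higher and 2 lower, beside 14.6% and 15.5% of all genes. In IgG RIP against input, edgeR and DESeq2 called 0 members higher and 0 lower, beside 6.79% and 5% of all genes, although 1 was higher (Sfn) and 4 were lower (Ywhab, Ywhae, Ywhah and Ywhaq) at an unadjusted p under 0.05 in edgeR. For these 4 the DESeq2 FDR (Wald test) was 6e-06, 0.000311, 0.000651 and 0.000482 in turn, with changes under 2-fold. For Sfn it was 0.102. Against both controls, 1 member was called higher and 0 lower (backgrounds 7.58% and 9.54%), and Ywhae and Ywhaq were lower than both at an unadjusted p under 0.05 in edgeR, with 0 also called lower than both by DESeq2. All 3 CELF2-KI RIPs lay above all 6 controls for 4 members (Ywhab, Ywhag, Ywhah and Ywhaz), as for 25.2% of all genes, and below all 6 for 1 member (Ywhae), as for 19.9%. The comparisons with IgG RIP and with input share the CELF2-KI RIP libraries.

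Genes with high CPM, most members among them, had a larger share of higher calls than all genes. Of 2320 genes with a mean of at least 100 CPM over the 9 libraries, 5 members among them, 30.1% were called higher than IgG RIP and 7.59% lower, with a median log2 fold change of 0.56. That mean includes the CELF2-KI RIPs, so a rise there helps a gene to pass and a fall hinders it. The shares and medians of these genes are therefore not an independent background for the members. Over all genes that median was -0.06, and over the 7 members it was 0.98. Against input the medians were 0.65 for the 7 members, 0.72 for the abundant genes and 0.19 for all genes. Over the 5 abundant members alone, the medians were 0.98 against IgG RIP and 0.31 against input.

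The choice of library scaling set where 0 lay. Scaling to total counts moved the median over all genes from -0.06 to -0.42 against IgG RIP and from 0.19 to -0.27 against input, and it turned the split of calls against IgG RIP from 2050 higher and 2069 lower into 937 and 3421. Relative to the median over all genes, Ywhag stood at 1.71 with the usual scaling (trimmed mean of M values, TMM) and at 1.70 with total counts, Ywhah at 1.30 in both, and Ywhae at -0.71 in both. Under total counts and under upper-quartile scaling, Ywhah (0.88 and 0.98) and Ywhaz (0.75 and 0.86) lost their calls against IgG RIP, and Ywhae was called lower (-1.13 and -1.03). With TMM over coding and noncoding genes Ywhaz (0.91) lost its call as well. Ywhag kept its call under each scaling.

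**Figure D3:**
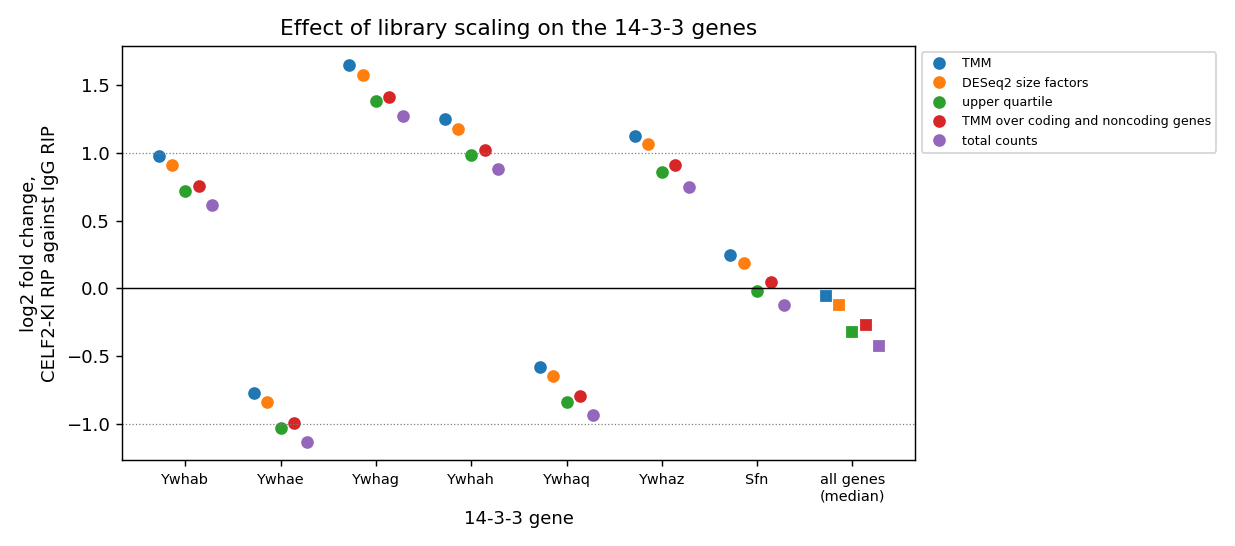
Log2 fold change of CELF2-KI RIP against IgG RIP (y axis) for the 7 14-3-3 genes (circles) and the median over all 15267 genes tested (squares) under 5 library scalings, with dotted lines at 2-fold. All genes move down together from TMM to total counts, and Ywhag stays above the upper line (1.27 or more) in each.

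Ratios between members within a library do not depend on scaling, although the counts are not per transcript length and the ratios are not ratios of molecules. The ratio of Ywhag to Ywhae counts was 1.79, 1.97 and 1.71 in the inputs, 3.32, 3.58 and 2.98 in the IgG RIPs, and 12.3, 21.1 and 19.8 in the CELF2-KI RIPs. The 3 groups were far apart on this ratio. The exact permutation p on the log2 ratio was 0.1 for each pair of groups, two-sided, which is the smallest that 3 against 3 allows. It leaves the replicate numbers aside, and an exchange within 3 numbered pairs could not go below 0.25. The ratio of Ywhah to Ywhae was 0.395 to 0.431 in input, 0.427 to 0.526 in IgG RIP and 1.63 to 2.12 in CELF2-KI RIP, and that of Ywhab to Ywhae moved alike, from 0.396 to 0.521 in input and 0.455 to 0.553 in IgG RIP to 1.49 to 1.85. The ratio of Ywhaq to Ywhae spanned 0.588 to 0.674 in input, 0.612 to 0.655 in IgG RIP and 0.626 to 0.788 in CELF2-KI RIP, and the ranges overlapped.

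Between the members that rose, the ratio of Ywhag to Ywhah was 4.32 to 4.56 in input, 6.81 to 7.72 in IgG RIP and 7.50 to 10.9 in CELF2-KI RIP. CELF2-KI RIP replicate 1 overlapped the IgG RIPs here (exact permutation p = 0.2). Both kinds of RIP were above input.

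**Figure D4:**
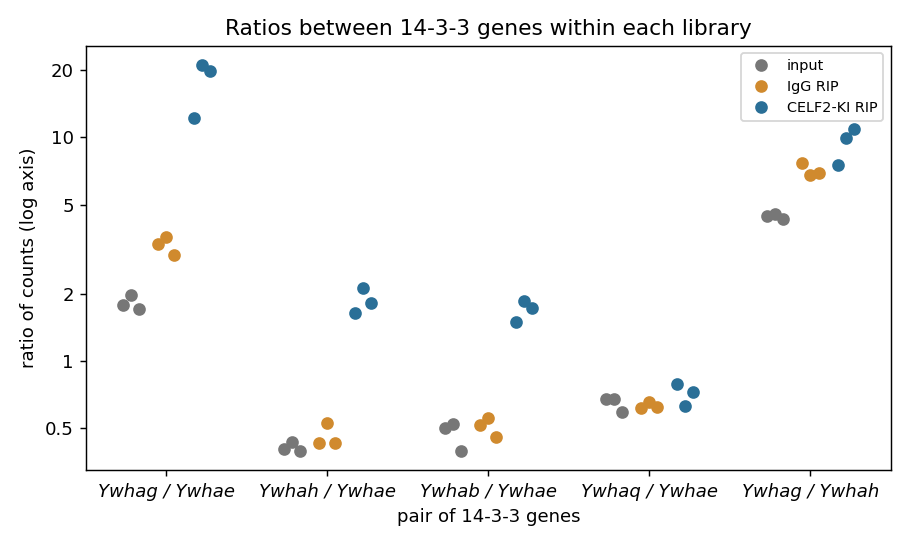
Ratio of counts between pairs of 14-3-3 genes (y axis, log scale) in each of 9 libraries, colored by group. Ywhag, Ywhah and Ywhab each rise against Ywhae in CELF2-KI RIP (Ywhag to Ywhae, 12.3 to 21.1), and Ywhaq against Ywhae stays between 0.588 and 0.788 in all libraries.

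The makeup of the family's counts followed from these ratios. Ywhag took 39.5% to 41.3% of the 14-3-3 counts in input, 53.0% to 54.2% in IgG RIP and 68.6% to 76.6% in CELF2-KI RIP. Ywhae fell from 21.0% to 23.7% in input and 14.9% to 17.8% in IgG RIP to 3.61% to 5.59% in CELF2-KI RIP, and Ywhaq from 13.9% to 14.9% and 9.79% to 11.1% to 2.26% to 4.41%. The share of Ywhah was 8.92% to 9.35% in input, 7.01% to 7.85% in IgG RIP and 7.04% to 9.14% in CELF2-KI RIP, with overlap, although its level rose. The summed level of the 7 mRNAs was 3663, 4774 and 4169 CPM in CELF2-KI RIP, against 1580, 1703 and 2278 in IgG RIP, with the inputs at 2317, 2212 and 2434. As a share of all protein-coding counts, the family took 0.322% to 0.368% in CELF2-KI RIP, 0.169% to 0.239% in IgG RIP and 0.256% to 0.272% in input, with no overlap (exact permutation p = 0.1 for each pair, two-sided). On the summed CPM, IgG RIP replicate 3 overlapped the inputs (exact permutation p = 0.2 for IgG RIP against input, two-sided).

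**Figure D5:**
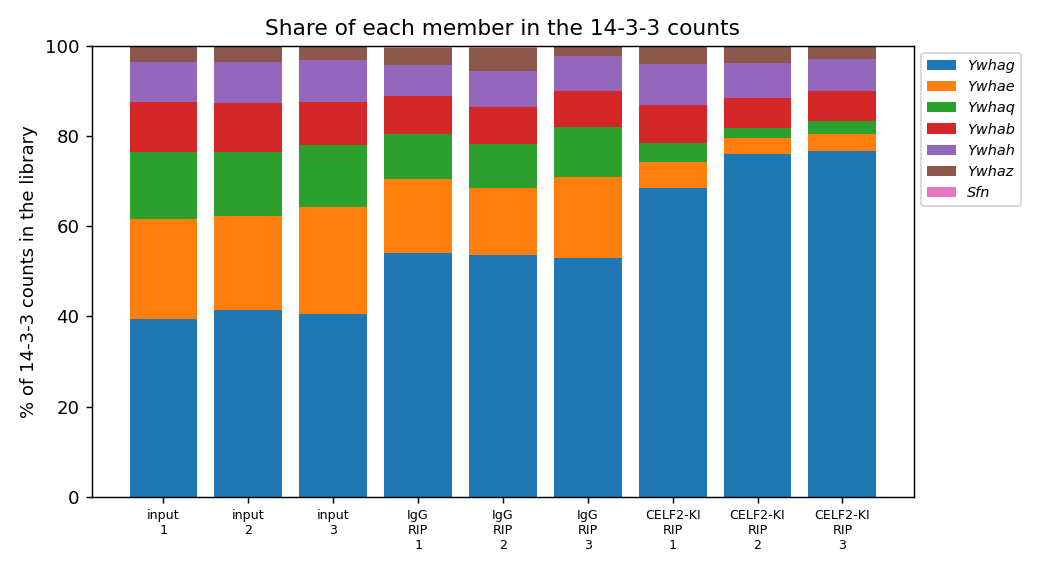
Share of each 14-3-3 gene in the family's counts (y axis, %) in each of 9 libraries. Ywhag (bottom, blue) grows from 39.5% to 41.3% in input to 68.6% to 76.6% in CELF2-KI RIP while Ywhae and Ywhaq shrink; Sfn is too small to be seen.

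At the level of single transcripts, 5 members (Ywhae, Ywhag, Ywhah, Ywhaq and Sfn) had 1 transcript each, Ywhab had 2 and Ywhaz 4, and 10 of the 11 passed the filter. NM_018871.3 of Ywhag (log2 fold change 1.41 ± 0.16, edgeR FDR 0.00152) and NM_011738.2 of Ywhah (1.01 ± 0.18, edgeR FDR 0.00814) were called higher than IgG RIP, beside 3.19% of 39137 transcripts tested, and 0 were called lower, beside 3.15%. Ywhae NM_009536.4 (-0.997 ± 0.22, edgeR FDR 0.0209) and NM_011739.3 of Ywhaq (-0.80 ± 0.25, edgeR FDR 0.0705) were lower at an unadjusted p under 0.05 in edgeR, and DESeq2 was not run on transcripts. Against input, NM_018871.3 was called higher (1.24 ± 0.16, edgeR FDR 0.00249; background 0.94%), and NM_009536.4 of Ywhae (-2.01 ± 0.23, edgeR FDR 0.00143) and NM_011739.3 of Ywhaq (-1.84 ± 0.25, edgeR FDR 0.00319) lower, beside 4.51%. Counts of a gene with a single transcript are the same in both analyses, and its fold change differs because the transcripts were scaled as a set of their own, with a median over all transcripts of -0.20 against IgG RIP. With replicate number as a block, the calls fell from 2 to 1 (higher than IgG RIP) and from 2 to 1 (lower than input). They also changed when libraries were left out 1 at a time. Leaving out any of 8 of the 9 libraries (all but IgG RIP replicate 3) left 1 transcript called higher than IgG RIP. These 8 include the inputs, which enter that comparison only through the shared fit. Without input replicate 1, 2 or 3 or CELF2-KI RIP replicate 3 the count higher than input was 0.

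The main transcript of Ywhab, NM_018753.6, held 92.6% to 98.8% of the gene's counts, and its log2 fold change against IgG RIP was 0.77 ± 0.14 (edgeR FDR 0.00972). The predicted transcript XM_006499909.1 took the rest, 1.24% to 7.41%. For Ywhaz, NM_001253806.1 held 45.4% to 79.3% and NM_011740.3 held 9.86% to 48.7% of the counts, with wide spread within each group. Their log2 fold changes against IgG RIP were 0.75 ± 0.40 (edgeR FDR 0.265) and 1.67 ± 0.46 (edgeR FDR 0.0475). NM_001253805.1 averaged 3.53 CPM and was at 0 in IgG RIP replicate 2. The remaining Ywhaz transcript, NM_001253807.1, had 170 estimated counts in IgG RIP replicate 3 and less than 1 in each other library. A test of isoform use (edgeR diffSpliceDGE) called 0 of the 5 testable transcripts of Ywhab and Ywhaz (FDR 1, 0 at an unadjusted p under 0.05), beside 0.717% of 32896 transcripts.

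Ywhae shares chromosome 11 with 2 other genes of the Miller-Dieker region, and these moved in the opposite direction. Crk, a signalling adapter gene 24.5 kb from Ywhae, had 204 ± 15.3 CPM in CELF2-KI RIP, against 89.6 ± 10.4 in IgG RIP, with input at 99.1 ± 2.72 (SD, n = 3). It was called higher than both controls, with log2 fold changes of 1.19 ± 0.11 (edgeR FDR 2.06e-05) and 1.05 ± 0.11 (edgeR FDR 3.34e-05). Pafah1b1, which encodes the dynein regulator LIS1 and lies 1009 kb from Ywhae, had 635 ± 65.7, 288 ± 20.9 and 270 ± 21.3 CPM, and was called higher than both controls as well (1.14 ± 0.11, edgeR FDR 2.62e-05, and 1.24 ± 0.11, edgeR FDR 1.51e-05).

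Genes whose levels ran most like those of a member over the 9 libraries were found by Pearson's r of log2 CPM. For Ywhag these were Osbp (r = 0.997), Fto and Eif4ebp2 (both 0.996), and for Ywhae they were Sod1 (r = 0.99), Eif3k and Pld3 (both 0.989). The 9 libraries form 3 groups, which these values mostly reflect: of 9717 genes with a mean of at least 10 CPM, 862 had r over 0.95 with Ywhag and 349 with Ywhae. Log2 fold changes against IgG RIP were 1.62 for Eif4ebp2, 1.03 for Osbp and 0.84 for Fto, and -1.13 for Eif3k, -0.75 for Sod1 and -0.63 for Pld3.

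The proteins that 14-3-3 dimers bind were taken as a list of 52 client genes, of which 51 were tested. Against IgG RIP, 14 of the 51 were called higher (27.5%, beside 13.4% of all genes) and 2 lower (3.92%, beside 13.6%), with a median log2 fold change of 0.38 beside -0.06 over all genes. Against input, 16 were called higher (31.4%, beside 14.6%) and 3 lower (5.88%, beside 15.5%), with a median of 0.63 beside 0.19, and 12 were called higher than both controls (23.5%, beside 7.58%). In IgG RIP against input, 2 were called higher and 2 lower (3.92% each, beside 6.79% and 5%, median 0.19). The clients were not matched for level and were listed with earlier results of these data known. Among the genes with a mean of at least 100 CPM, 30.1% were called higher than IgG RIP and 7.59% lower. Against input these shares were 33.0% and 7.93%. Under total-count scaling the calls against IgG RIP were 3 higher and 4 lower, beside 6.14% and 22.4% of all genes.

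The clients with the largest called rises were Mapt, which encodes tau, Foxo1, a transcription factor held in the cytoplasm by 14-3-3, Kcnk3, a potassium channel whose surface traffic needs 14-3-3, and Irs1, the insulin receptor substrate. Mapt had 2744 ± 737 CPM in CELF2-KI RIP, against 853 ± 63.1 in IgG RIP, with input at 1106 ± 91.1 (log2 fold change against IgG RIP 1.69 ± 0.18, edgeR FDR 3.65e-05). For Foxo1 the change was 1.56 ± 0.17 (edgeR FDR 4.35e-05), for Kcnk3 1.51 ± 0.19 (edgeR FDR 0.000107) and for Irs1 1.36 ± 0.17 (edgeR FDR 8.40e-05). The clients called lower than IgG RIP were Bad, the death-promoting BCL2 relative that 14-3-3 sequesters (-1.64 ± 0.17, edgeR FDR 3.36e-05, 4.74 ± 0.91 against 14.9 ± 1.55 CPM), and Myo1c, an unconventional myosin (-1.38 ± 0.29, edgeR FDR 0.00228). Bad was also called lower than input (-2.24 ± 0.17, edgeR FDR 5.16e-06). Myo1c did not differ from input (0.02 ± 0.28, edgeR FDR 0.952). It had 15.1 ± 3.16 CPM in CELF2-KI RIP, 39.4 ± 15.5 in IgG RIP and 14.9 ± 0.50 in input (SD, n = 3). IgG RIP was itself called above input for Myo1c (1.40 ± 0.28, edgeR FDR 0.00372).

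Kinases that phosphorylate 14-3-3 binding sites were taken as a second list. Of 25 tested, 3 were called higher than IgG RIP (12%, beside 13.4%) and 1 lower (4%, beside 13.6%), with a median of 0.49, and 2 were called higher than both controls (8%, beside 7.58%). Against input, 7 were called higher (28%, beside 14.6%) and 3 lower (12%, beside 15.5%), with a median of 0.74, and in IgG RIP against input 2 were called higher (8%, beside 6.79%). Those called higher than IgG RIP were Prkaa2, a catalytic subunit of AMPK (1.34 ± 0.14, edgeR FDR 2.91e-05), Pim1 (1.32 ± 0.22, edgeR FDR 0.000517) and Prkacb, a catalytic subunit of protein kinase A (1.30 ± 0.15, edgeR FDR 5.04e-05), and the one called lower was Camk1 (-1.84 ± 0.26, edgeR FDR 0.000191). Under total-count scaling 0 were called higher and 5 lower, beside 6.14% and 22.4% of all genes.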

How the data were processed

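RIP-seq and input libraries were made after rRNA depletion with a directional kit. Per the labels, reads were checked with FastQC 0.11.9, trimmed with fastp 0.23.4, cleared of rRNA with Ribodetector 0.3.1 and quantified with kallisto 0.51.1, and the processing notes also name DESeq2 1.46.0, edgeR 4.4.0 and mm10. The authors deposited estimated counts per transcript, not normalized for depth or length. The paper names Ensembl transcripts, and the identifiers are RefSeq accessions. Transcripts were assigned to genes through their accessions in RefSeq's gene table for GRCm38.p6, and counts were summed per gene and rounded. 20662 transcripts matched no gene and were left out.

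Genes coding for proteins that reached 0.5 CPM in 3 or more libraries entered edgeR 4.0.16 (quasi-likelihood, TMM scaling, all 9 libraries, 1 mean per group) in R 4.3.3 (limma 3.58.1). For comparison, DESeq2 1.42.0 was the alternative tool, and Python 3.11.15, pandas 2.3.3 and matplotlib 3.10.9 prepared the tables and plots. SEs are the log2 fold change divided by the square root of the F statistic. The script was tested on simulated data. The p-values measure the spread between 3 libraries per group, and depth limits Sfn most. No transcript lengths were used, so CPM and shares of counts set side by side for different genes are amounts of counts, not of molecules.

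Same-numbered CELF2-KI RIP and input libraries deviated together from their group means (r = 0.127, 0.109 and 0.132 for numbers 1 to 3), so replicate number may pair them. The main model had no replicate term, and a replicate block was tried among the alternatives. The labels do not say that the numbers mark shared animals. The check did not pair IgG RIP with CELF2-KI RIP (-0.06, 0.03 and 0.01) or with input (0.03, 0.09 and 0.04).

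The members, the client and kinase lists and the cell type markers were chosen with earlier results of these data known. Named were the 7 members and their transcripts with a mean of at least 1 CPM, up to 4 called genes per direction from each list, the 3 genes most like the members with the highest and lowest log2 fold change against IgG RIP, Crk and Pafah1b1 of the Miller-Dieker region, and Celf2.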

Additional observations from a re-analysis of the deposited data

How the results depend on the processing

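The members' fold changes and calls, and the calls of the lists against IgG RIP, were recomputed under 20 alternatives, and the transcript results under 12 of them. Ratios, shares and the lists against input or both controls were not recomputed. With upper-quartile scaling, 1 member was called higher than IgG RIP (in place of 3), 1 lower (in place of 0) and 1 lower than both controls (in place of 0), 8 clients were called higher (in place of 14) and 3 kinases lower (in place of 1), and Sfn turned to -0.0157 on the log2 scale. With total counts, the members were 1 higher, 1 lower and 1 lower than both controls, the clients 3 higher and 4 lower, the kinases 0 higher and 5 lower, and the transcripts 1 higher and 1 lower than IgG RIP. The reversed log2 fold changes under total counts were Sfn against IgG RIP (-0.12), Ywhab against input (-0.15) and Ywhag in IgG RIP against input (-0.0143), and, with TMM over coding and noncoding genes, Ywhab against input (-0.0784) and Ywhag in IgG RIP against input (-0.0844), where 9 clients were called higher and 3 kinases lower. Upper-quartile scaling moved the median over all genes to -0.32 against IgG RIP. Of all genes, 7.94% were called higher and 19.8% lower than IgG RIP under upper-quartile scaling. These shares were 6.14% and 22.4% under total counts, and 8.84% and 18.5% with TMM over coding and noncoding genes. Relative to the median over all genes, no member moved by more than 0.023 between the 5 scalings in any comparison.

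Testing against a 2-fold minimum (glmTreat) left 1 member higher than IgG RIP and 0 lower than input, 1 client higher and 1 lower, and 0 kinases higher and 0 lower, and Ywhag's FDR was 0.00455 and 0.00186. Of all genes, glmTreat called 3.57% higher and 4.07% lower than IgG RIP, and 7.32% lower than input. Curated transcripts alone left 9 clients higher and 2 kinases lower, beside 9.92% and 12.1% of all genes. No filter, and a filter of 5 CPM, each gave 2 kinases lower, beside 12.7% and 17.5% of all genes in turn. No filter left 1 transcript higher than IgG RIP. In these the cause was not tested.

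The replicate block left 1 transcript higher than IgG RIP and 1 lower than input, and it changed no call of a member gene. Leaving out 1 library at a time gave 1 to 2 members higher than input, 0 to 1 higher and 0 to 2 lower in IgG RIP against input, 1 to 2 higher than both controls, 1 to 2 clients lower, 3 to 5 kinases higher and 1 to 2 lower. Of the members, 2 were called higher than IgG RIP without CELF2-KI RIP replicate 2, and Ywhab was called as well without CELF2-KI RIP replicate 3. For transcripts, leaving out 1 library gave 1 to 2 higher than IgG RIP, 0 to 1 higher than input and 1 to 2 lower than input. Sfn against IgG RIP ranged from -0.0911 to 0.51 and Ywhag in IgG RIP against input from -0.0865 to 0.18.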
